A study of Sus scrofa with 24 samples.

Results

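The difference in embryo gene expression between the IS21FE and the IS21SE strategies was measured on all 24 of the series' 24 two-colour arrays, 12 of each strategy. Each array compared RNA of a strategy pool with RNA of a control pool of the same sex. The arrays make 12 replicates of 2 arrays with exchanged dyes, 3 for each strategy and pool sex, and the 6 IS21FE replicates were set against the 6 IS21SE replicates with pool sex as a covariate. Ratios of a strategy to its control are given only as the values behind that difference.

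The embryos were recovered at day 30 of gestation from primiparous sows, which are sows in their first parity. The 4 groups were IS21FE male pools, IS21FE female pools, IS21SE male pools and IS21SE female pools, each hybridized against C28 control pools of its own sex. Both strategies combined intermittent suckling with a mating scheme, and the labels do not spell out the letters FE and SE. A pool held 3 embryos of a sex from 1 sow. There were 3 sows in each strategy and 6 control sows, 24 pools in all, so by count every replicate had a control pool of its own. Male and female pools of a strategy came from the same 3 sows, so its 6 replicates stand for 3 litters. Which sow lay behind which number is not stated, and p-values below measure the spread between pools.

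In intermittent suckling, sow and litter are separated for part of each day, which lowers the suckling drive that holds back the ovaries and can bring on oestrus during lactation. A pig embryo of this age has formed its main organs and is beginning fetal growth, and RNA of a whole embryo mixes all of its tissues. In such bulk samples fewer cells of a type and less RNA per cell cannot be told apart. On a two-colour array a gene is read as the ratio of 2 dyes, and exchanging the dyes between a pair of arrays lets a bias of the dyes cancel. A ratio holds no level, so whether the markers of a tissue were present in the pools cannot be read from these values.

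All values below are log2 ratios or differences between log2 ratios, turned so that the strategy stands over control on the assumption of Cy5 over Cy3 in every column. That channel order is stated nowhere in the files. Under the opposite order every sign turns, so differences are called positive or negative. Of 43749 probes, 18109 carried a single gene symbol, and 11019 genes had at least 2 measured replicates in each of the 4 groups. Between 31722 and 39435 probes had a value on an array. Precision is limited by how many arrays there are. SDs of male arrays, 0.937 to 1.332, lay above those of female arrays, 0.62 to 0.89. Median absolute deviations were close in both, 0.529 to 0.546 on male arrays and 0.53 to 0.539 on female arrays, so the unequal SDs came from the tails. Within a sex the strategies had similar SDs, with 0.937 to 1.332 on IS21FE and 1.013 to 1.12 on IS21SE male arrays, and 0.62 to 0.89 on IS21FE and 0.714 to 0.835 on IS21SE female arrays. A set of 3 female arrays with strategy RNA in Cy5 stood apart. These were of IS21FE replicates 1 and 3 and IS21SE replicate 2, and they correlated with each other across strategies at Pearson's r of 0.491 to 0.549 across probes. The next pair of arrays in one orientation reached 0.307, and IS21SE replicate 2 correlated with IS21SE replicate 3 at -0.074.

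No gene differed between IS21FE and IS21SE pools at an adjusted p under 0.05 (0 of 11019 genes, or 0% of those tested; limma with Benjamini-Hochberg adjustment, lowest adjusted p = 0.933). At an unadjusted p under 0.05 stood 542 genes, 4.92% of those tested, where 551 would be the count without any difference. Of these, 247 (2.24%) had a positive difference and 295 (2.68%) a negative one. Among the 9499 genes measured in all 12 replicates, the 6 IS21FE values lay wholly above or wholly below the 6 IS21SE values in 9 genes, or 0.0947%. Without the 3 female arrays that resembled each other, 0 of 10400 genes were called and 448 (4.31%) had an unadjusted p under 0.05. The 30 genes with the smallest p therefore follow as descriptions of these pools, each with an adjusted p of 0.933, and none of them is a called difference.

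The precision behind this count can be stated. The median standard error of a gene's difference was 0.222, and the median distance of its 95% interval's bounds on either side of it was 0.49, with quartiles of 0.299 and 0.893. That interval takes no account of the number of genes tested. For the typical gene an observed strategy difference smaller than about 0.49 on the log2 scale did not reach an unadjusted p under 0.05. How large a true difference had to be to be found was not estimated. A call after adjustment over all genes needed a larger difference, and how much larger was not estimated. SAMD4A, which had the smallest p of the genes described below, had a difference of -0.76 ± 0.14 (SE). Its adjusted p in limma was still 0.933. Differences above 1 in size were found in 416 genes, and none of them passed the threshold. Across replicates of one group the median gene SD was 0.31 in IS21FE and 0.253 in IS21SE male pools, against 0.238 in IS21FE and 0.275 in IS21SE female pools.

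**Figure D1:**
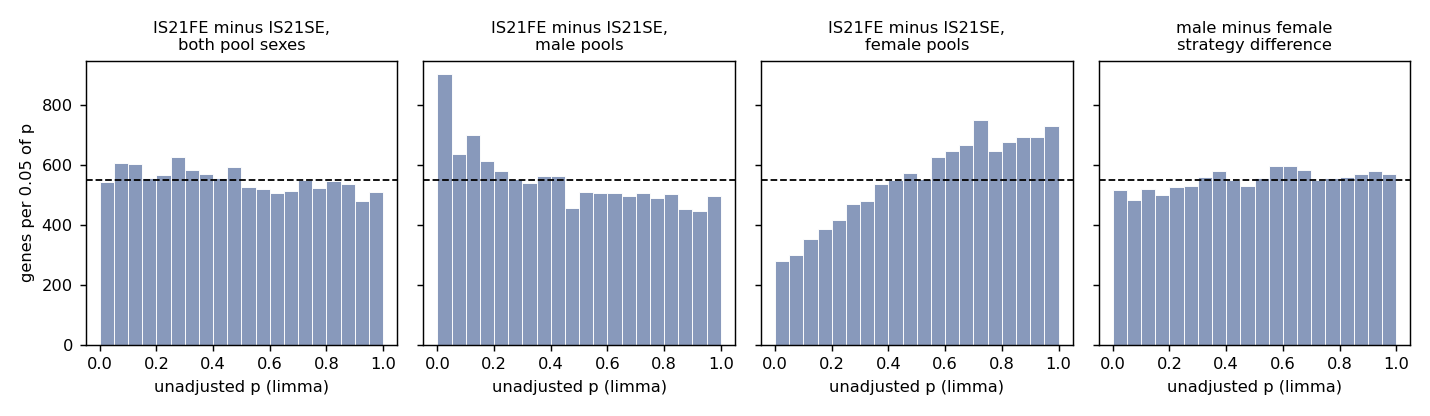
Unadjusted p-values of limma over 11019 genes in bins of 0.05 (x axis) and the number of genes per bin (y axis), for the strategy difference over both pool sexes, in male pools, in female pools, and for the male minus female difference of it. The dashed line is the even count of 551. The first bin holds 542, 902, 278 and 518 genes.

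The 30 genes are described by their known roles, a grouping made after their values were seen and given no test. LUC7L3, a splicing factor associated with the U1 particle, ran at 0.12, 0.39 and 0.71 in IS21FE pools (lowest, median and highest of 6) against -0.34, -0.04 and 0.16 in IS21SE pools. Its ratio was above 0 in 6 of 6 IS21FE and 2 of 6 IS21SE replicates, and the groups overlapped only between 0.12 and 0.16. The difference was 0.47 ± 0.11 (SE, 12 replicates). SRSF11, a serine and arginine rich splicing factor, had 0.00, 0.12 and 0.33 in IS21FE pools against -0.48, -0.32 and 0.04 in IS21SE pools, a difference of 0.43 ± 0.11. Here too 1 IS21SE replicate reached into the IS21FE range. SNAPC1 encodes a subunit of the complex that activates transcription of small nuclear RNAs. It ran at -0.01, 0.20 and 0.41 in IS21FE pools against -0.70, -0.28 and -0.06 in IS21SE pools, with no overlap and a difference of 0.50 ± 0.12. TAF1D, a subunit of the selectivity factor of RNA polymerase I, had the smallest difference of the 30 in size, 0.34 ± 0.094, with means of 0.26 ± 0.17 in IS21FE and -0.08 ± 0.16 in IS21SE pools (SD, n = 6 each).

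Several transcriptional regulators had differences of either sign. DEAF1, a DNA-binding transcription factor, stood at -0.36, -0.23 and 0.02 in IS21FE pools against -0.09, 0.25 and 0.42 in IS21SE pools, a difference of -0.44 ± 0.092. It was above 0 in 1 of 6 IS21FE and 5 of 6 IS21SE replicates. HMG20B, an HMG-box subunit of a chromatin-modifying corepressor complex, stood at -0.34, -0.13 and 0.03 in IS21FE pools against 0.22, 0.25 and 0.45 in IS21SE pools. The groups of HMG20B did not overlap, and its IS21SE values were tight (SD 0.096), for a difference of -0.44 ± 0.097. That difference was -0.15 on the arrays with strategy RNA in Cy5 and -0.7 on those with control RNA in Cy5. ZNF827, a zinc finger protein, ran at 0.01, 0.22 and 0.81 in IS21FE pools against -0.69, -0.31 and -0.12 in IS21SE pools. All IS21FE values were positive and all IS21SE values negative, a difference of 0.63 ± 0.16, but its 2 probes disagreed, with differences of 0.07 and 1.19, and it was 0.39 where both arrays of a replicate were required. SIX2, the homeobox factor that keeps nephron progenitors undifferentiated, averaged -0.18 ± 0.90 in IS21FE and 0.96 ± 0.99 in IS21SE pools. Its ranges overlapped widely and only 7 of its 12 replicates were measured on both arrays. The difference was -1.14 ± 0.30, but -0.34 on the arrays with strategy RNA in Cy5, and it could not be fitted in the other orientation.

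Of the genes for membrane proteins and signalling, CD72 had the clearest separation. CD72, an inhibitory receptor of B cells, ran at 0.37, 0.57 and 0.72 in IS21FE pools against -0.51, 0.09 and 0.25 in IS21SE pools. Its groups did not overlap, and the difference was 0.55 ± 0.14. ATP2B1, the calcium pump of the plasma membrane, had -0.04, 0.18 and 0.38 in IS21FE pools against -0.54, -0.22 and 0.00 in IS21SE pools, a difference of 0.43 ± 0.11. That value leaned on 1 of its 5 probes, with 1.53, while the other 4 ran between 0.14 and 0.25, and it was 0.27 where both arrays were required. STRN, or striatin, a scaffold of protein phosphatase complexes, averaged 0.80 ± 0.57 in IS21FE and -0.22 ± 0.60 in IS21SE pools, with a difference of 1.01 ± 0.25. LRRC8A, a subunit of the volume-regulated anion channel, had a difference of -0.68 ± 0.18, and TMED1, a cargo receptor between endoplasmic reticulum and Golgi, one of -0.56 ± 0.15. SCUBE2, which helps to release Hedgehog ligands from cells, had -1.04, -0.47 and -0.21 in IS21FE pools against -0.26, 0.15 and 0.34 in IS21SE pools. SCUBE2 was below 0 in 6 of 6 IS21FE replicates and above 0 in 4 of 6 IS21SE replicates, with a difference of -0.64 ± 0.17.

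Enzymes and carriers made up a further group. AMY2, the pancreatic amylase gene, ran at 0.06, 0.25 and 0.39 in IS21FE pools against -0.41, -0.28 and 0.09 in IS21SE pools, a difference of 0.48 ± 0.10. It was above 0 in 6 of 6 IS21FE replicates but 1 of 6 IS21SE replicates, and that single female pool made the overlap. SLC25A34, a member of the mitochondrial carrier family, had -0.52, -0.23 and 0.38 in IS21FE pools against 0.18, 0.50 and 1.27 in IS21SE pools, a difference of -0.70 ± 0.17. Male pools of both strategies reached higher than female ones in SLC25A34, so the overlap came from IS21FE male and IS21SE female pools. DHRS11, a short-chain dehydrogenase, had a difference of -0.52 ± 0.14 with means of -0.38 ± 0.40 in IS21FE and 0.14 ± 0.47 in IS21SE pools. ACCS, annotated by homology to a plant synthase, did not overlap, with -0.01, 0.40 and 1.33 in IS21FE pools against -0.81, -0.30 and -0.03 in IS21SE pools, and its difference was 0.87 ± 0.21. CYP2C32, a cytochrome P450, had a larger difference, -1.42 ± 0.31, but lacked a value in 3 of 12 replicates and had both arrays in only 3. SGMS2, which makes sphingomyelin, averaged -1.18 ± 0.87 in IS21FE and 0.59 ± 0.71 in IS21SE pools, a difference of -1.77 ± 0.45. GLB1L3, a beta-galactosidase-like protein, averaged -0.82 ± 0.16 in IS21FE and -0.08 ± 0.51 in IS21SE pools, a difference of -0.74 ± 0.20.

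The smallest p of all 30 belonged to SAMD4A, a translational repressor known as Smaug from the fly. It ran at -1.06, -0.68 and -0.10 in IS21FE pools against -0.09, 0.09 and 0.60 in IS21SE pools, a difference of -0.76 with a 95% interval of -1.07 to -0.46. Its unadjusted p in limma was 0.000183. The groups did not overlap but nearly met at -0.10 and -0.09, and the difference was 0.00 on the arrays with strategy RNA in Cy5 and -1.28 on those with control RNA in Cy5. It was -0.48 where both arrays of a replicate were required. N4BP2, which binds the ubiquitin ligase NEDD4, averaged 0.61 ± 0.46 in IS21FE and -0.20 ± 0.083 in IS21SE pools. Male IS21FE replicate 2 of N4BP2, at -0.28, lay apart from the other 5 IS21FE values of 0.56 to 0.99. Without it the difference was 0.99 in place of 0.81 and its adjusted p was 0.0263, which is past the threshold. That was the one gene called in the comparison of both sexes in any fit that left out a replicate. WDR35, a component of the transport complex of cilia, had a difference of -1.49 ± 0.37, PLEKHG6 one of -1.73 ± 0.43, and PGLYRP4, which binds bacterial peptidoglycan, one of -2.22 ± 0.61. These wide differences had wide errors, and 8, 3 and 7 of the 12 replicates had both arrays. The remaining genes of the 30 were PHTF2 with 0.68 ± 0.17, whose 2 probes had -0.01 and 1.37, the SOCS box gene ASB4 with 0.89 ± 0.24, CCDC130 with -0.85 ± 0.22 and the NIMA-related kinase gene NEK10 with -0.60 ± 0.16.

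**Figure D2:**
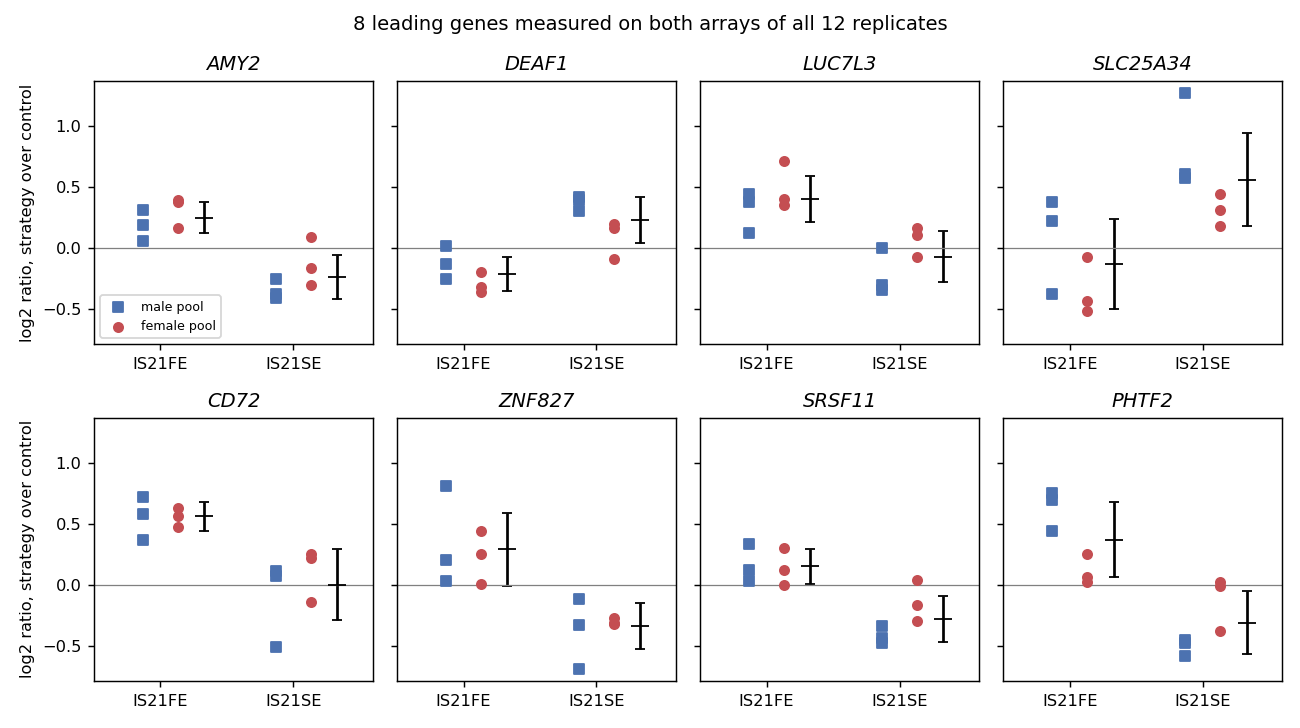
Log2 ratio of strategy to control (y axis) in each replicate of 8 leading genes that were measured on both arrays of all 12 replicates, IS21FE left and IS21SE right. Squares are male pools and circles female pools, and the bar beside them is the mean with its SD (n = 6). CD72 and ZNF827 show no overlap, and in AMY2, DEAF1, LUC7L3, SLC25A34, SRSF11 and PHTF2 some replicates of both strategies share a range.

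Of the 30 genes 13 had a positive and 17 a negative difference, with sizes of 0.34 to 2.22. A value in all 12 replicates was found for 28, and both arrays in all 12 replicates for 14. Those 14 were AMY2, DEAF1, LUC7L3, SLC25A34, CD72, ZNF827, SRSF11, PHTF2, ATP2B1, CCDC130, TAF1D, SCUBE2, NEK10 and DHRS11. All 30 had the same sign in male and in female pools, and 21 of the 22 with a value in each dye orientation had the same sign in both, with SAMD4A as the exception. Both properties enter the p by which these genes were ranked, so neither is separate support. With no array turned, 17 of the 30 had the opposite sign, again with no gene called. If the dye labels hold, a strategy difference cancels there wherever both arrays are measured. That setting is therefore no test of these signs. Groups did not overlap in 8 of the 30, of which SAMD4A, HMG20B, ACCS, CD72, ZNF827 and SNAPC1 were measured in all 12 replicates. Such separation goes with a small p, so it is no separate support either. Over all 9499 genes measured in all 12 replicates it was found in 9, or 0.0947%.

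The sexes were then taken apart, since male and female arrays differed in their tails. In male pools 1 of 11019 genes was called (0.00908%) and 902 (8.19%) had an unadjusted p under 0.05. In female pools 0 genes (0%) were called and 278 (2.52%) had an unadjusted p under 0.05, with a lowest adjusted p of 1. These fits shared a spread over both sexes, with a median standard error of 0.314 in each. The differences themselves were wider in male pools, with an SD over genes of 0.691 in male and 0.424 in female pools and a median size of 0.243 in male and 0.171 in female pools. With each sex fitted by itself, the counts at an unadjusted p under 0.05 were 590 in male and 465 in female pools, and 0 genes were called in either. A single pool also moved the female count. It was 494 without female IS21SE replicate 2 and 177 without female IS21FE replicate 1, which are 2 of the replicates whose arrays resembled each other.

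The called gene of the male pools has only the locus identifier LOC100155213. Its male replicates had 3.16, 5.69 and 4.69 in IS21FE pools against -0.50, -1.45 and -0.40 in IS21SE pools, a difference of 5.29 ± 0.57 (adjusted p = 0.0399). All 3 IS21FE male values stood far above the rest. The female replicates had 0.59, 0.20 and 0.01 in IS21FE pools against -0.55, 0.21 and 0.25 in IS21SE pools, a difference of 0.30 ± 0.57. It was measured on both arrays in only 4 of 12 replicates, and its difference between the sexes, 5.0 ± 0.80, did not pass over all genes (adjusted p = 0.72). The call was lost with the sexes fitted apart (limma, adjusted p = 0.893) and without any one of 9 of the 12 replicates (0.0561 to 0.136). The difference stayed at 5.29 with the sexes fitted apart and at 4.96 to 5.48 in those 9 fits. With no array turned it was 3.38 and not called (adjusted p = 0.447), but that setting does not test the call if the dye labels hold. LOC100155213 was not tested where both arrays of a replicate were required.

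Whether the strategy difference itself differed between male and female pools was tested as an interaction. No gene was called (0 of 11019, 0%, lowest adjusted p = 0.72), and 518 genes, 4.7%, had an unadjusted p under 0.05. The 6 genes with symbols and the smallest p all had a positive difference in male and a negative one in female pools. Opposite signs go with a small interaction p, so they are no separate support. Of the 518 genes, 274 had a positive and 244 a negative male minus female value. ASB15, an ankyrin repeat protein with a SOCS box, had 3.36 ± 0.47 in male and -0.62 ± 0.38 in female pools. GPAT2, which acylates glycerol 3-phosphate, had 3.57 ± 0.50 in male and -0.97 ± 0.46 in female pools. CD274, the ligand of the inhibitory receptor PD-1, had 2.77 ± 0.55 in male and -1.30 ± 0.49 in female pools. These 3 genes lacked values in 1 to 3 replicates and had both arrays in 7, 4 and 4.

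The next 3 were measured more fully. IGSF10, an immunoglobulin superfamily member, had 2.02 ± 0.40 in male and -0.89 ± 0.40 in female pools. PI15, a peptidase inhibitor, had -0.06, 0.05 and 0.16 in IS21FE against -0.76, -0.76 and -0.49 in IS21SE male pools, and -1.20, -0.94 and -0.59 in IS21FE against 0.69, -0.16 and -0.20 in IS21SE female pools. Within each sex the strategies did not overlap and their order was opposite, with a male minus female value of 1.74 ± 0.36 and both arrays in 11 of 12 replicates. Such an order goes with a small interaction p, by which PI15 was picked, so it is no separate support. Its share over all genes was not counted. GAS8, a subunit of the complex that regulates ciliary dynein, had 2.06, 2.31 and 2.82 in IS21FE against 0.69, -0.78 and -0.24 in IS21SE male pools. In female pools GAS8 had -1.28, -0.23 and -0.31 in IS21FE against -0.17, -0.12 and -0.66 in IS21SE, so its 3 IS21FE male pools alone stood high. Among the 30 genes of the main comparison, PHTF2 (1.13 ± 0.16 in male, 0.23 ± 0.16 in female pools), SGMS2 (-2.73 ± 0.51 in male, -0.82 ± 0.51 in female pools) and PGLYRP4 (-3.64 ± 0.63 in male, -0.81 ± 0.63 in female pools) had an unadjusted interaction p under 0.05. Their adjusted p was 0.789 to 0.992.

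**Figure D3:**
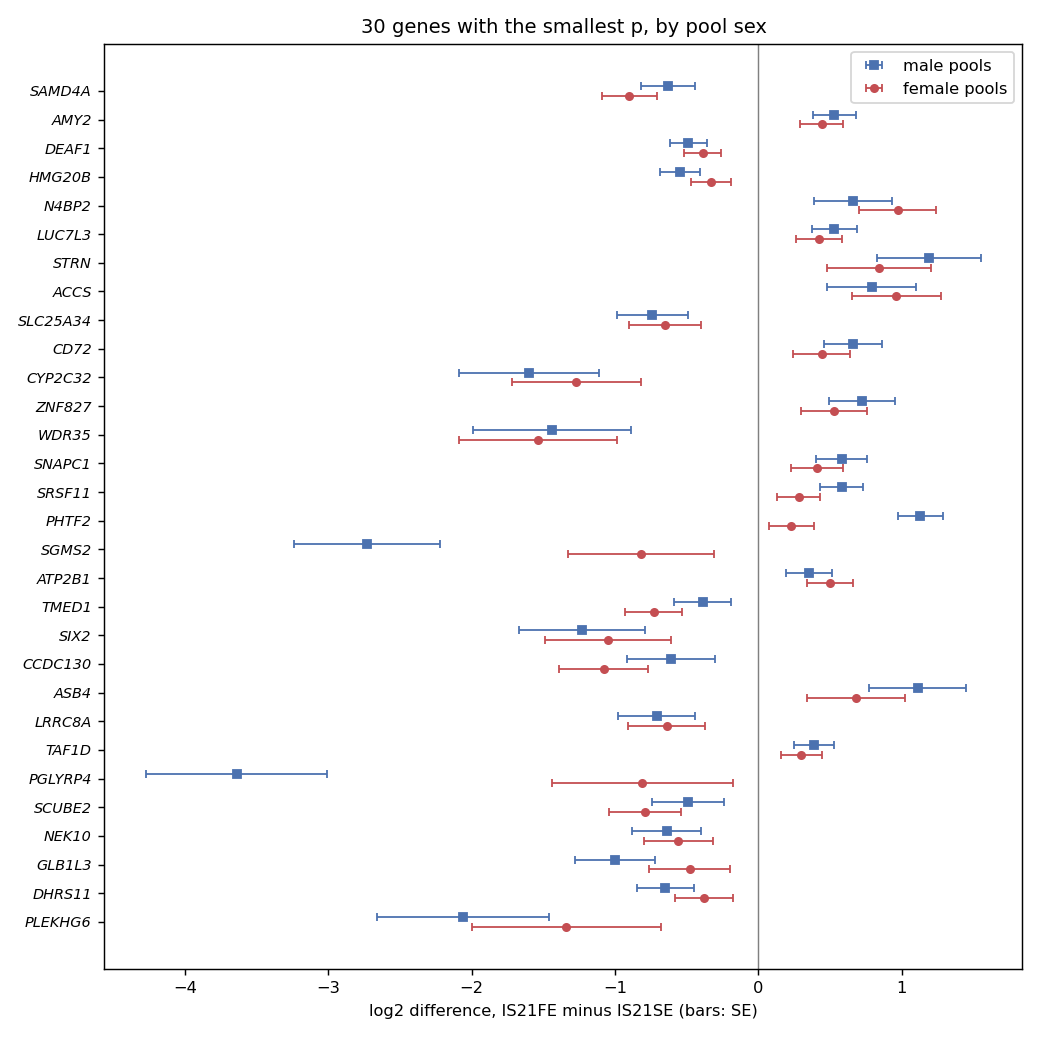
Strategy difference (x axis, log2 IS21FE minus IS21SE, bars are standard errors) of the 30 genes with the smallest p, in male pools (squares, upper of each pair) and female pools (circles, lower), 3 replicates of each strategy per sex. All 30 pairs lie on one side of 0, and PHTF2, SGMS2 and PGLYRP4 have the most unequal pairs.

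The 2 dye orientations give separate readings of the same difference on the same RNA. Across 6607 genes with values throughout, the IS21FE minus IS21SE difference on arrays with strategy RNA in Cy5 correlated with that on arrays with control RNA in Cy5 at a Spearman coefficient of 0.289 in male pools, with one sign in 62.6% of genes. In female pools the coefficient was -0.07 and the share of one sign 46.5%. Over both sexes together it was 0.181 and the share 57.1%. Male and female pools, which share no RNA, had a coefficient of 0.092 and a share of 53.9%. These are correlations across genes, which are not independent replicates, and the arrays of a sex share their scale. As deposited, before any array was turned, the arrays of a pair correlated below 0 in 6 of 6 male pairs (-0.298 to -0.003) but in only 1 of 6 female pairs (-0.038 to 0.324). The direction of the female values thus has less backing from the swap pairs than that of the male values, and why was not tested. A female difference averaged over both orientations is an average of readings that did not run together across genes.

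**Figure D4:**
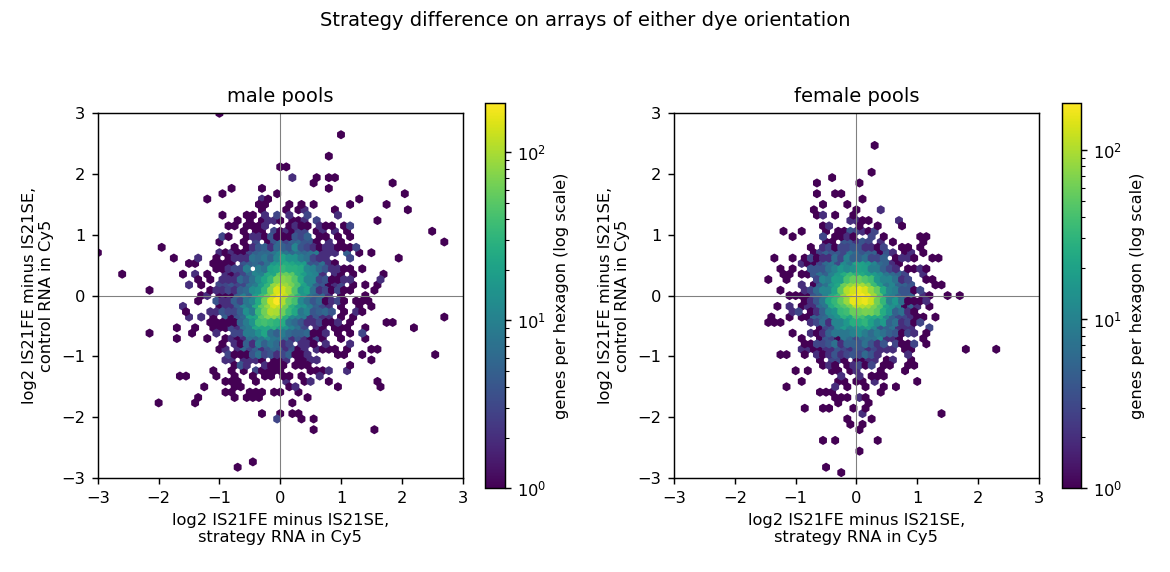
Strategy difference (log2 IS21FE minus IS21SE) of 6607 genes on arrays with strategy RNA in Cy5 (x axis) and with control RNA in Cy5 (y axis), in male pools left and female pools right, coloured by genes per hexagon on a log scale. The male cloud leans along the diagonal (coefficient 0.289) and the female cloud does not (coefficient -0.07), and 8 genes lie outside the axes.

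Gene lists for tissues, growth, signalling and immune cells were then read against all genes. Over all 11019 genes 47.3% of differences were positive and the median was -0.01. The 36 lists held 1086 of these genes, of which 0 were called and 56 (5.16%) had an unadjusted p under 0.05, beside 4.92% of all genes. List medians ran from -0.21 to 0.11, 9 of them positive and 27 negative, many lists share members, and the medians of the 6 IS21FE and the 6 IS21SE replicates overlapped in 36 of 36 lists. With no array turned, 17 medians were positive, 12 negative and 7 at 0.00, from -0.11 to 0.14. If the dye labels hold, a strategy difference largely cancels in that setting, so it does not test the share of negative lists or the direction of any list below. The medians of both sexes include the female values, whose direction has less backing from the swap pairs. All named members below had an adjusted p of 0.933 or more.

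Muscle and heart lists had negative medians. In the list of skeletal muscle contraction 2 of 24 tested members had a positive difference, with a median of -0.13, with -0.11 in male and -0.14 in female pools. Where both arrays were required that median was -0.11, and that of the heart chamber genes -0.21. With no array turned they were 0.00 and -0.03, which does not test them. The replicate medians of the skeletal muscle list ran from -0.32 to 0.04 in IS21FE and from -0.24 to 0.14 in IS21SE pools, so the strategies overlapped over most of the range. ENO3, the enolase of muscle, averaged -0.50 ± 0.35 in IS21FE and -0.01 ± 0.30 in IS21SE pools, a difference of -0.49 ± 0.19. ACTN2, the sarcomeric actinin of the Z-disc, had a difference of -0.35 ± 0.14, and ACTC1, cardiac actin, one of -0.31 ± 0.13. Of the heart chamber genes 6 of 18 were positive with a median of -0.21, and the sexes disagreed, with -0.43 in male and 0.13 in female pools. MYBPC3, the myosin-binding protein of cardiac thick filaments, had -0.46 ± 0.24, and NPR1, the natriuretic peptide receptor, -0.59 ± 0.27. NPR1 was -0.13 on the arrays with strategy RNA in Cy5 and could not be fitted in the other orientation. Among 12 myogenic regulators the median was -0.08, with -0.26 in male and 0.14 in female pools, and PAX3, which marks muscle precursors and neural crest, had a wide 1.07 ± 0.75.

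The lists of growth and metabolism had medians of -0.14 to 0.01. Cytosolic ribosomal proteins had 10 of 49 members positive and a median of -0.07, with RPL10A at -0.17 ± 0.087 and RPS2 at -0.15 ± 0.084, both subunits of the ribosome. Replicate medians of these genes ran from -0.13 to 0.03 in IS21FE and from -0.03 to 0.11 in IS21SE pools. Mitochondrial ribosomal proteins had 28 of 54 positive and a median of 0.01, respiratory chain subunits 19 of 50 and -0.02, and proteasome subunits 14 of 36 and -0.03. No member of these 4 lists reached an unadjusted p under 0.05. Of the glycolysis and hypoxia genes 6 of 25 were positive, with a median of -0.14 that was -0.08 where both arrays were required. VEGFA, the main angiogenic growth factor, ran at -0.50, -0.11 and 0.60 in IS21FE pools against 0.00, 0.31 and 0.76 in IS21SE pools, a difference of -0.41 ± 0.20 that was -0.66 where both arrays were required. With no array turned the medians of the cytosolic ribosomal and the glycolysis lists were 0.05 and 0.03, which does not test them. HIF1A, the oxygen-regulated transcription factor, had the opposite sign, 0.35 ± 0.21. Aminoacyl-tRNA synthetases had 7 of 23 positive with a median of -0.09, and cyclins, CDKs and licensing factors 11 of 26 with -0.02, where CDC20, an activator of the anaphase-promoting complex, had -0.35 ± 0.12 and CDK2 -0.37 ± 0.15. In all, 2 chaperone members had an unadjusted p under 0.05, the chaperonin subunit CCT7 at -0.25 ± 0.10 and HSP90AB1 at -0.21 ± 0.094, in a list with a median of -0.02. GSTM3, a glutathione transferase, had -0.47 ± 0.17 and NSDHL, an enzyme of cholesterol synthesis, -0.39 ± 0.17, in lists with medians of -0.01 and -0.03.

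Organ lists ran on either side of 0. Cilium and centrosome genes had 42 of 67 positive with a median of 0.10, in male pools 0.08 and in female pools 0.06. Their median was 0.16 where both arrays were required, and -0.03 with no array turned, which does not test it. IFT74, a subunit of the intraflagellar transport complex, had -0.25, -0.02 and 0.49 in IS21FE pools against -0.58, -0.31 and 0.09 in IS21SE pools, a difference of 0.35 ± 0.11, and DNAL1, an axonemal dynein light chain, one of 0.64 ± 0.20. FOXJ1, the master regulator of motile cilia, had the opposite sign, -1.04 ± 0.37, with both arrays in 7 replicates. Kidney genes had 13 of 20 positive with a median of 0.08, which was 0.09 where both arrays were required. With no array turned the kidney median was -0.04, which does not test it. SIX2 and the organic anion transporter gene SLC22A6 were negative, SLC22A6 at -0.67 ± 0.31 as a gene but -0.28 in its 1 probe tested alone and -0.35 where both arrays were required. Liver genes had 15 of 37 positive and a median of -0.10. ALB, serum albumin, averaged 0.48 ± 0.62 in IS21FE and -0.20 ± 0.71 in IS21SE pools, a difference of 0.68 ± 0.34, while the clotting factor gene F10 had -0.35 ± 0.16. Among 26 neural genes the median was -0.13, with the neurotrophin receptors NTRK3 at -0.54 ± 0.15 and NTRK2 at -0.27 ± 0.11 and the eye and forebrain regulator PAX6 at 0.58 ± 0.19. The 5 probes of PAX6 ran from -0.09 to 1.31. Erythroid genes had 7 of 22 positive and a median of -0.08. ALAS2, which starts haem synthesis in red cells, had -0.35 ± 0.14, while TAL1 had the opposite sign, 0.49 ± 0.22. For TAL1 the difference was -0.01 on the arrays with strategy RNA in Cy5 and 1.13 on those with control RNA in Cy5. Endothelial genes had a median of -0.10, with ENG, a TGF-beta co-receptor of vessels, at -0.40 ± 0.15. VWF, the clotting glycoprotein of endothelium, had 1.22 ± 0.30, but a value in only 8 of 12 replicates.

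Signalling and patterning genes gave single differences without a shared direction. Of the TGF-beta family 18 of 28 were positive with a median of 0.07. INHBE, an activin subunit made in liver, ran at 0.44, 0.57 and 0.91 in IS21FE pools against -0.94, -0.32 and 1.01 in IS21SE pools, a difference of 0.82 ± 0.27. The IS21FE values of INHBE were close together, while 5 of 6 IS21SE values lay below all of them and 1 above. INHA, the inhibin alpha subunit, had 0.84 ± 0.34 and the receptor gene TGFBR2 -0.50 ± 0.17. BMP7, a bone morphogenetic protein needed for kidney and eye, had -0.72 ± 0.26, and its antagonist NOG, or noggin, 0.83 ± 0.33, in a WNT, BMP and FGF list with 32 of 60 positive and a median of 0.01. Homeobox, PAX and T-box genes had 41 of 76 positive and a median of 0.03. In the growth hormone and IGF axis the median was -0.05, and 0.02 where both arrays were required. SOCS2, which restrains growth hormone signalling, had -0.29, -0.22 and 0.01 in IS21FE pools against -0.06, 0.05 and 0.36 in IS21SE pools. Its difference was -0.29 ± 0.10, and -0.19 where both arrays were required. Of 25 imprinted genes 11 were positive with a median of -0.08, with DLK1, the paternally expressed Notch ligand, at -0.30 ± 0.12, INPP5F at -0.54 ± 0.20 and PPP1R9A at 0.52 ± 0.19. SETD1A, a histone H3 methyltransferase, had 0.75 ± 0.25 and MBD1, a reader of methylated DNA, -0.48 ± 0.18 with probes at 0.06, -0.26 and -1.23, in a list of 41 with a median of -0.03.

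Immune and maternal markers bear on the other cells a pool could hold. Markers of placenta, trophoblast and endometrium had 12 of 26 positive and a median of -0.03, and their summed level cannot be given from ratios. Replicate medians of these markers ran from -0.16 to 0.02 in IS21FE and from -0.11 to 0.23 in IS21SE pools. Lymphocyte genes had 13 of 29 positive and a median of -0.02, with 0.10 in male and -0.06 in female pools. Where both arrays were required the lymphocyte median was -0.14. Beside CD72, the T cell co-stimulator gene CD28 had 0.93 ± 0.37 and the T cell co-receptor gene CD8B 1.76 ± 0.80, with both arrays in 4 and 5 of 12 replicates, and their part in the difference of CD72 was not tested. Macrophage and granulocyte genes had 14 of 22 positive and a median of 0.11, with PLEK, or pleckstrin, at 0.61 ± 0.18 and S100A8, a calcium-binding protein of granulocytes, at -1.18 ± 0.34. Swine MHC genes had 7 of 20 positive and a median of -0.16, which was only -0.03 where both arrays were required. SLA-3, a class I gene, had 0.64 ± 0.21 and SLA-DMA, which loads class II peptides, -0.47 ± 0.17, and probes of such near-identical genes can share target RNA. SAL1, or salivary lipocalin, averaged 0.26 ± 0.70 in IS21FE and 1.21 ± 1.6 in IS21SE pools, a difference of -0.95 ± 0.44, with -1.86 in male and -0.04 in female pools.

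**Figure D5:**
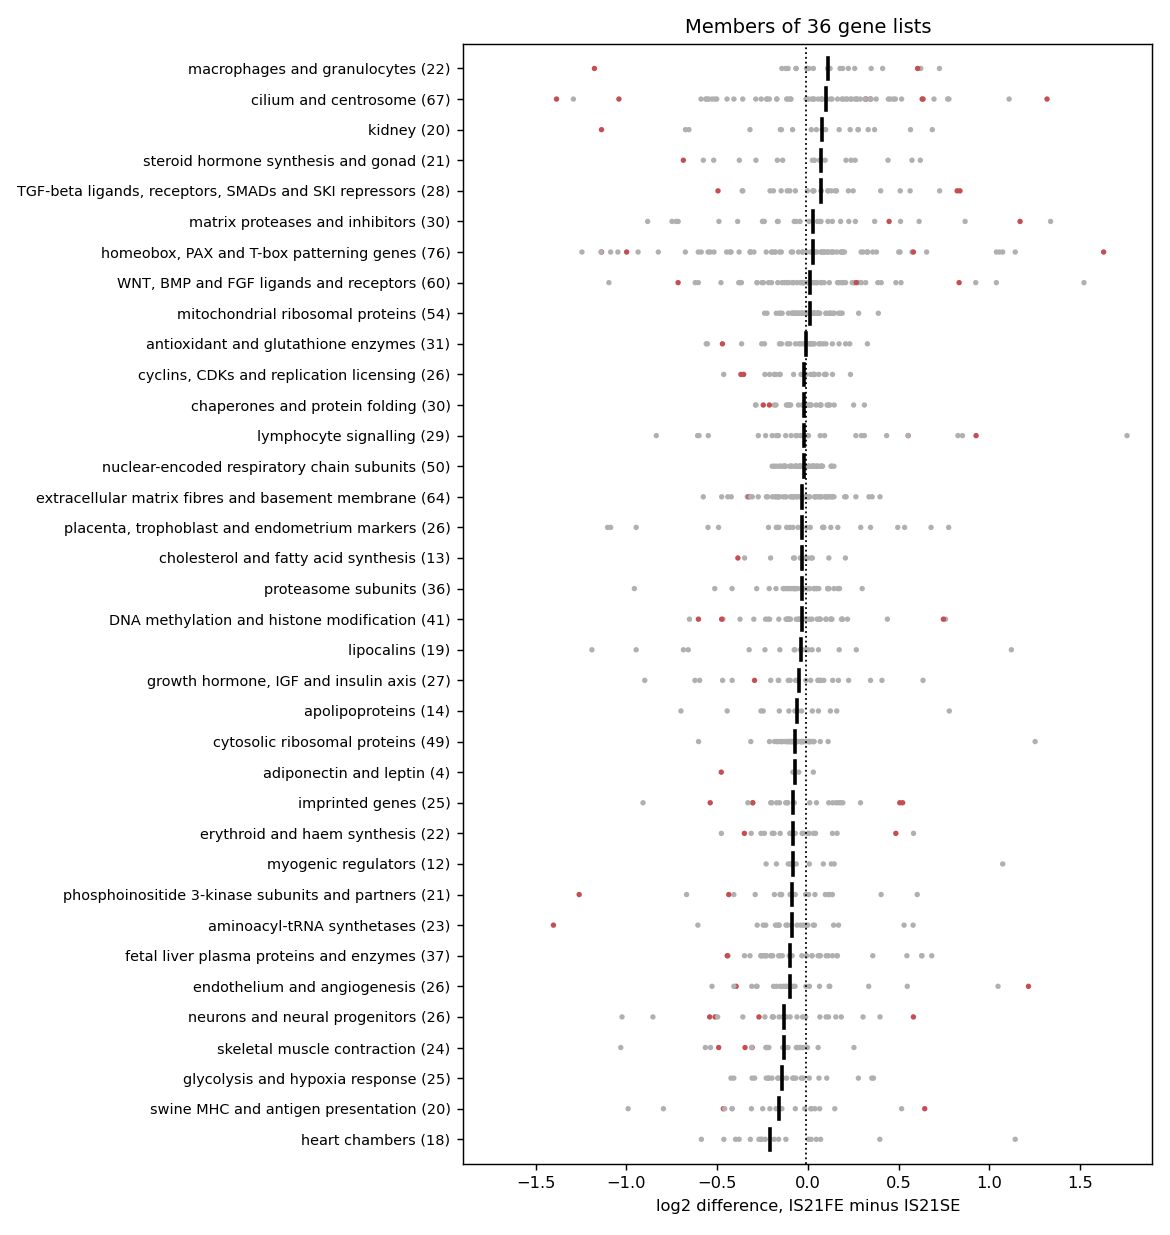
Strategy difference (x axis, log2 IS21FE minus IS21SE) of the members of 36 gene lists (rows, number of tested members in brackets, ordered by median). Points are genes, those with an unadjusted p under 0.05 in red, the thick bar is the list's median and the dotted line the median of all genes, -0.01. List medians lie between -0.21 and 0.11, inside the spread of their members.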

How the data were processed

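RNA of day 30 pig embryo pools was compared on two-colour arrays. The authors deposited 1 log ratio per probe and array, taken here as log2 because values run from -9.34 to 9.85, and 16.6% of values were blank. Not given in the sources used here are the channel order, background correction, normalization, log base and filter, and spot intensities were not used. RNA came from a column kit with DNase treatment, and 200 ng was labelled with a low input kit, per the labels' protocols.

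Arrays with control RNA in Cy5 were multiplied by -1, the 2 arrays of a replicate were averaged over those measured, and probes of a gene were averaged over those measured in each replicate. Probe symbols came from the platform annotation, with 124 probes renamed by accession and 224 by synonym, which gave 11906 symbols, 880 of them locus identifiers only. No probe had several symbols, and 25640 had none. No columns beyond the 24 arrays were found.

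Genes needed 2 measured replicates in each group. limma 3.58.1 in R 4.3.3 fitted strategy and pool sex on 12 replicates with eBayes and Benjamini-Hochberg adjustment over all genes at 0.05. Differences within a sex and between sexes came from a fit of 4 group means. The fits were tested on simulated data. Genes named are the 30 smallest p, passing over locus identifiers, the 6 smallest for the interaction and up to 3 from each of 36 lists, of which not all are printed. LOC100155213 was named in addition, since it was called. The comparison, its members and its lists were chosen with earlier results of these data known, and the pattern for the swine MHC list was corrected after values were seen, because it had taken in unrelated genes. The deviations of same-numbered male and female pools of a strategy correlated at 0.007 to 0.083, and those of same-numbered pools of both strategies at -0.173 to 0.026. None was above 0.1, so numbers were not taken to pair pools. Alternatives changed the model, block, array scale, centring, weights, dye orientation, turning, probe summary, blanks and replicates.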

Additional observations from a re-analysis of the deposited data

Results flagged for a closer look

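Among 146 sets of 4 to 6 measured replicates, 6 held a replicate whose gap to its nearest neighbour was large against the range of the set. Chance marks about 1 in 20 sets. In N4BP2 the IS21FE male replicate 2 stood low, at -0.28. In ZNF827 the IS21SE male replicate 3 stood low, at -0.69. The median of imprinted genes was high in IS21FE female replicate 3, at 0.18. The median of mitochondrial ribosomal proteins was low in IS21SE male replicate 1, at -0.10. IS21SE female replicate 2 stood out in 2 lists, low for glycolysis and hypoxia response at -0.03 and high for TGF-beta ligands, receptors, SMADs and SKI repressors at 0.14.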

How the results depend on the processing

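The count of 0 genes called between IS21FE and IS21SE held under 16 alternatives that kept every replicate, with lowest adjusted p-values of 0.255 to 0.965. Among the 16 was the setting with no array turned. If the dye labels hold, a strategy difference largely cancels there, so that setting does not test the count. The count at an unadjusted p under 0.05 stayed within 448 to 616 genes, or 4.31% to 5.59% of the genes tested in each. With probes in place of genes it was 2052 of 38365 probes, or 5.35%, the larger number of features being part of the alternative. With a replicate block 0 genes were called and 547 had an unadjusted p under 0.05. The block gave 0 genes in male pools, where LOC100155213 had 5.29 with an adjusted p of 0.156, and 0 genes in female pools, and 293 in female and 900 in male pools at an unadjusted p under 0.05. Its interaction counts were 0 and 514. A pool correlated best with its own number in 4 of 6 cases between male and female pools and in 2 of 6 between strategies. With same-numbered male and female pools as 1 sow in a random block, 0 genes were called and 488 had an unadjusted p under 0.05. Leaving out 1 replicate gave 0 to 1 genes and 479 to 738 at an unadjusted p under 0.05 for both sexes, 0 to 5 and 755 to 1043 in male pools, 0 to 0 and 177 to 494 in female pools, and 0 to 1 and 390 to 591 for the interaction. The 738 came without IS21SE female replicate 2 and the 5 male calls without IS21SE male replicate 1. The male count of called genes was 0 with sexes fitted apart and with both arrays of a replicate required, the last chosen after seeing the data. It was also 0 with no array turned, which does not test the count if the dye labels hold. Fitted apart, 590 male and 465 female genes had an unadjusted p under 0.05, and with no array turned 511 female genes did. With both arrays required the interaction had 331 of only 8463 genes tested, or 3.91%, beside 4.7% of the 11019 genes of the main fit. The cause of these shifts was not tested.

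With no array turned, a setting where a strategy difference largely cancels if the dye labels hold, 17 of the 30 genes changed sign. None of them passed the threshold. The values were SAMD4A 0.42, AMY2 -0.06, HMG20B 0.24, N4BP2 -0.08, LUC7L3 -0.05, STRN -0.54, ACCS -0.24, PHTF2 -0.24, SGMS2 0.22, ATP2B1 -0.11, SIX2 0.37, ASB4 -0.19, PGLYRP4 0.78, SCUBE2 0.13, NEK10 0.08, DHRS11 0.13 and PLEKHG6 1.22. The male minus female values became -1.94 for CD274, -0.33 for IGSF10 and -0.95 for GAS8. With strategy RNA in Cy5 alone SAMD4A was 0.00. Under the other settings each of the 30 with a value kept its sign. Scaling or centring the arrays moved the median of all genes by 0.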
